A study of Schmidtea polychroa with 132 samples.

Results

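Single embryos of the planarian Schmidtea polychroa at stage 4 of development were compared with single embryos at stage 3, across all transcript models for which counts were deposited. The comparison used 30 of the 132 libraries of the series, 8 of stage 4 and 22 of stage 3. All embryos came from a laboratory population; capsules were held at 20 °C and opened at times spread over 15 days, and each embryo was staged before freezing. No treatment or genotype distinguished the groups, and the labels give neither a capsule of origin nor an age for an embryo. Each library was made from 1 embryo by CEL-Seq, which amplifies barcoded polyadenylated RNA and reads its 3′ ends. The library was treated with DSN, a nuclease used to deplete abundant molecules, and the tables hold counts of synthetic spike-in RNAs.

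Which libraries entered was partly decided from measured values. Of 10 stage 4 libraries, replicates 3 and 10 (sample numbers 37 and 44) were left out because they were rich in reads of transcripts that are also high in the 1 library labelled protist. By the definition used here, 113 transcripts were high in the protist library, and they took 54.5% and 31.1% of transcript counts in those libraries. In the 8 stage 4 libraries that were kept they took between 0.0448% and 2.95%, with a median of 0.103%, and in stage 3 between 0.000868% and 6.15%. Another 3 transcripts, whose counts follow those of the spike-ins, were removed from every library, which left 15121 transcript models. These choices are descriptions and not results.

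Planarian embryos develop beside separate yolk cells inside a shared egg capsule. Early blastomeres first build a temporary embryo with a temporary pharynx, which swallows the surrounding yolk cells, and undifferentiated embryonic cells later form the definitive body. An embryo library can therefore hold RNA of the embryo, of swallowed yolk cells and of yolk cells adhering to its surface. In whole embryos, fewer cells of a type and less RNA per cell cannot be told apart. The files do not pair transcript numbers with gene names or sequences, so no cell type marker could be checked, and transcripts are described as groups, with 2 named in each direction.

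The libraries differed technically between the groups. Transcript counts per library ran from 80191 to 1031344 in stage 4, with a median of 744219.5, and from 14491 to 1031677 in stage 3, with a median of 181364.5. Clustering of the proportions among spike-ins put all stage 4 libraries in 1 set and divided stage 3 into set A, with 10 libraries, and set B, with 12. Set A libraries had 165761 to 404424 spike-in counts each, set B libraries 18711 to 43237 and stage 4 libraries 17776 to 91382. Since no spike-in set holds both stages, set and stage cannot be told apart, and values are given against each set of stage 3 where they differ.

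From stage 3 to stage 4, 719 transcripts rose and 927 fell among 4673 tested, by edgeR's quasi-likelihood test with a Benjamini-Hochberg adjusted p under 0.05. This is 35.2% of those tested, 15.4% higher in stage 4 and 19.8% lower. The median log2 change was 1.82 among the transcripts that rose, with quartiles of 1.61 and 2.13, and -2.27 among those that fell, with quartiles of -2.79 and -1.83. Changes of at least 4-fold were found for 249 of the rises and 609 of the falls, and changes of at least 16-fold for 7 and 23. The rises had a median level of 40.4 CPM (counts relative to the library total, scaled with TMM factors) in stage 3 and 168 in stage 4, and the falls 133 and 27.2. The median over all transcripts tested was 0.24 on the log2 scale, so the rises lay 1.58 above it and the falls 2.52 below it.

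The division into rises and falls depended on scaling. With RLE size factors the median change of all transcripts was 0.94, and 1776 transcripts rose and 511 fell. With library totals alone it was 0.54, with 1270 rises and 813 falls, and with scaling to spike-in counts it was 1.12, with 394 rises and 4 falls. Spike-in counts differed between sets A and B of stage 3, so scaling to them also carries differences between sets. Of the 719 rises, 718 were called with RLE factors, 717 with library totals and 324 with spike-in scaling, and of the 927 falls 511, 810 and 4. The 3 scalings raise all log2 changes on balance, and 914 of the falls were still below 0 under spike-in scaling. Relative to the median of all transcripts, 926 of the 927 falls were lower under spike-in scaling.

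The spike-ins served as a guide to how much of such differences arises without any change in the embryo. Of 54 spike-ins tested in the same libraries, 3 were called higher (5.56%) and 1 lower (1.85%) in stage 4, which is 7.41% in all. Their median absolute log2 change was 0.35, against 1.18 in the 3447 transcripts whose mean counts per library reached that of the lowest spike-in tested (at least 16.2). Among transcripts averaging 100 to 320 counts the median absolute change was 1.27 and 159 of 369 were called. Among 13 spike-ins in that range it was 0.29 and none was called by edgeR. For 10 spike-ins averaging 32 to 100 counts the median was 0.47, against 1.23 in 1316 transcripts. At 10 to 32 counts the order was the other way, with a median of 1.63 in 4 spike-ins, 1 of them called, and 1.11 in 2613 transcripts. That range held 796 of the 1646 calls, and its few spike-ins give little guide to them. The SD of log2 changes was 0.81 over spike-ins and 1.55 over transcripts. Of all spike-ins tested, 48 of 54 changed by less than 2-fold, and the largest spike-in change was 3.44 on the log2 scale. Against each set of stage 3 alone the spike-ins differed more often. Against set A, 31 of 70 spike-ins (44.3%) were called beside 13.6% of transcripts, so the order was the reverse of the pooled one. Against set B, 18 of 47 spike-ins (38.3%) were called beside 51.4% of transcripts.

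**Figure D1:**
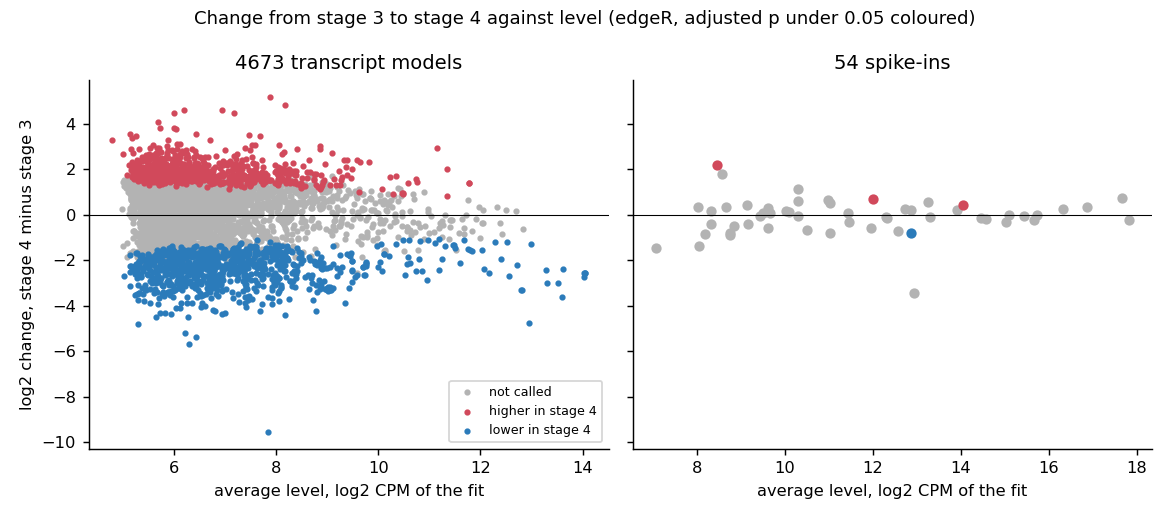
Log2 change from stage 3 to stage 4 against average level (log2 CPM of the fit) for 4673 transcript models and 54 spike-ins, each point 1 feature. Coloured points passed edgeR's adjusted p of 0.05, and most spike-ins lie close to 0 while called transcripts lie mainly beyond 1 in either direction.

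Stage 4 was also compared with each set of stage 3 on its own. Against set A, 154 transcripts rose and 259 fell among 3040 tested, and against set B 1663 rose and 1210 fell among 5589, by edgeR. Of the 719 rises, 649 could be tested against set A and 143 of these were called, and 682 of 695 were called against set B. Of the 927 falls, 384 could be tested against set A and 236 were called, and 869 of 903 were called against set B. No transcript was called in opposite directions between these comparisons and the pooled one. They reuse the libraries of the pooled comparison, so they are not independent of it. Within stage 3 itself, sets A and B differed in 192 of 2094 transcripts (9.17%), with 59 higher in set A (2.82%) and 133 lower (6.35%), and in 24 of 49 spike-ins (49.0%), by edgeR.

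The 8 stage 4 libraries that were kept had a more even and more diverse RNA population than those of stage 3. The 100 most abundant transcripts of each library took 23.0% to 31.1% of transcript counts in stage 4, with a median of 25.9%. In stage 3 they took 31.8% to 53.5%, with a median of 45.1%. Every kept stage 4 library lay below every stage 3 library. The left-out replicates 3 and 10 of stage 4 did not, at 58.3% and 40.4%. Stage 4 averaged 26.1% ± 2.48 (SD, n = 8) and stage 3 averaged 44.5% ± 6.75 (SD, n = 22), with an adjusted p of 1.54e-06 in an exact two-sided permutation test, Benjamini-Hochberg over 9 tests. The difference was -16.5 percentage points against set A (exact permutation test, adjusted p = 0.00024) and -19.9 against set B (exact permutation test, adjusted p = 2.38e-05). The 10 most abundant transcripts of stage 4 libraries took 6.26% ± 0.462 (SD, n = 8), and those of stage 3 took 17.3% ± 6.10 (SD, n = 22).

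With every library thinned to 14491 transcript counts, 3392 to 4815 transcripts had at least 1 count in stage 4, with a median of 4142.5, and 2260 to 3630 in stage 3, with a median of 3182.5. Stage 3 reached the lowest stage 4 value in 6 of 22 libraries. The mean rose by 1053 transcripts (exact permutation test, two-sided, adjusted p = 5.38e-06), by 1176 against set A (exact permutation test, adjusted p = 0.000529) and by 951 against set B (exact permutation test, adjusted p = 5.36e-05). All 8 kept stage 4 libraries lay above each of these stage 3 means. The left-out replicates 3 and 10 of stage 4 had 2623 and 3026 transcripts with a count. With all 10 stage 4 libraries the mean rose by 786 (permutation test, p = 0.0004).

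Transcript counts divided by spike-in counts, a measure of embryo RNA only if every tube received equal spike-in, did not separate the stages in the same way. The log2 of this ratio averaged 3.25 ± 1.19 (SD, n = 8) for stage 4. Set A averaged -1.90 ± 1.94 (SD, n = 10), whereas set B averaged 3.46 ± 1.18 (SD, n = 12). Stage 4 was higher than set A by 5.15 (exact permutation test, adjusted p = 8.23e-05) and differed from set B by -0.21 (exact permutation test, adjusted p = 0.697). Against all of stage 3 the difference was 2.23 (exact permutation test, adjusted p = 0.0695). The ratio is comparable only within a spike-in set, and each of these comparisons crosses sets. None of the 3 differences can therefore be assigned to stage.

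**Figure D2:**
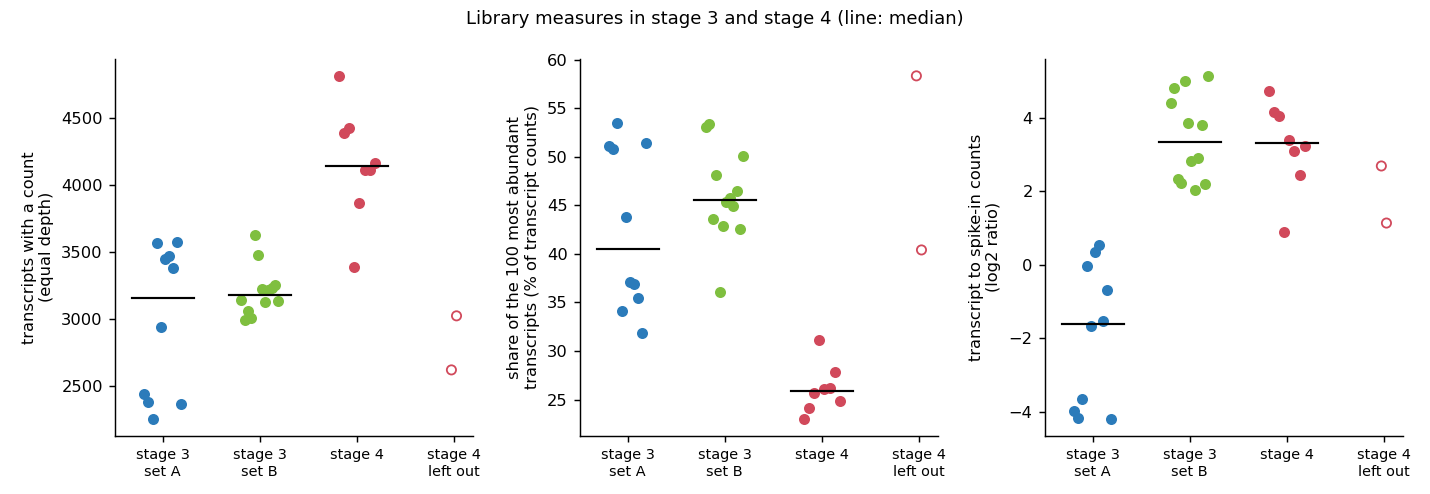
Transcripts with a count at equal depth, share of the 100 most abundant transcripts (% of transcript counts) and log2 ratio of transcript to spike-in counts, 1 point per library with the median as a line, for stage 3 sets A and B, stage 4 and the left-out stage 4 libraries (open). The kept stage 4 libraries lie at or above 3392 transcripts and at or below 31.1%, while their log2 ratio overlaps that of set B.

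The strongest rises were taken among transcripts called against each set of stage 3 as well. FW_v1_tr_05607 was at 176 CPM in the lowest stage 4 library, 661 in the median and 2058 in the highest. In stage 3 it ran from 0 through a median of 15.7 to 76.7 CPM, and 17 of 22 libraries held a count. All 8 stage 4 libraries lay above all 22 of stage 3. The log2 change was 5.20 (SE 0.51, edgeR adjusted p = 5.29e-10), with 5.91 against set A and 5.03 against set B. With TMM factors computed over all stages and yolk, its median level was 1.86 CPM in yolk, 39.4 at stage 1 and 22.8 at stage 2. At stage 1 it reached 261 in 1 library, above the lowest stage 4 library at 180 on that scale. The smallest stage 1 library held only 8530 transcript counts, a depth at which a few reads give such a level. The median of FW_v1_tr_05607 then stood at 1662 in stage 5 and 2232 at stage 6, and reached 2516 at stage 7 and 3106 at stage 8.

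FW_v1_tr_07145 ran from 147 CPM through a median of 800 to 2972 in stage 4, and from 0 through 21.3 to 131 in stage 3. The groups did not overlap. Its log2 change was 4.82 (SE 0.56, edgeR adjusted p = 6.28e-08), with 4.65 against set A and 4.88 against set B. It had no count in 3 of 4 yolk libraries. At stage 1 its highest value was 261 CPM, under the same limit of depth. The lowest stage 4 library stood at 156 on that scale. The median of FW_v1_tr_07145 was 13.9 CPM in stage 2 and 2642 in stage 5. On that scale both transcripts had higher medians in stage 5 than in stage 4 (604 and 634), and from stages 5 and 6 to stage 7 their log2 changes of 0.21 and -0.19 did not pass (edgeR adjusted p = 0.628 and 0.675).

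The named falls were chosen in the same way as the named rises. Being called against each set of stage 3 was thus a condition of choice and not added evidence. Among these falls, FW_v1_tr_09652 ran from 91.9 CPM through a median of 548 to 3494 in stage 3. In stage 4 it ran from 0 through a median of 60.1 to 117. Of the 8 stage 4 libraries, 7 lay below every stage 3 library. The log2 change was -3.88 (SE 0.72, edgeR adjusted p = 0.000373), with -3.32 against set A (edgeR adjusted p = 0.000493). Against set B the transcript had an edgeR adjusted p of 2.73e-05. Its level was even in yolk, between 651 and 828 CPM over 4 libraries, close to its median of 685 in stage 2. It went on falling to stage 7, by 2.15 on the log2 scale against stages 5 and 6 (edgeR adjusted p = 9.89e-05).

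FW_v1_tr_01607 was at 0 in the lowest stage 3 library, 181 CPM in the median and 974 in the highest. Stage 4 ran from 2.48 through 17.2 to 75.5 CPM, below the stage 3 median in 8 of 8 libraries, though the ranges overlapped. The stage 3 sets differed for it, with a median of 79.9 CPM in set A and 580 in set B. Its log2 change of -3.81 (SE 0.79, edgeR adjusted p = 0.000941) was accordingly -2.12 against set A (edgeR adjusted p = 0.0138) and -4.06 against set B (edgeR adjusted p = 2.35e-05). It stood at a median of 423 CPM in yolk and had counts in 4 of 15 stage 8 libraries.

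**Figure D3:**
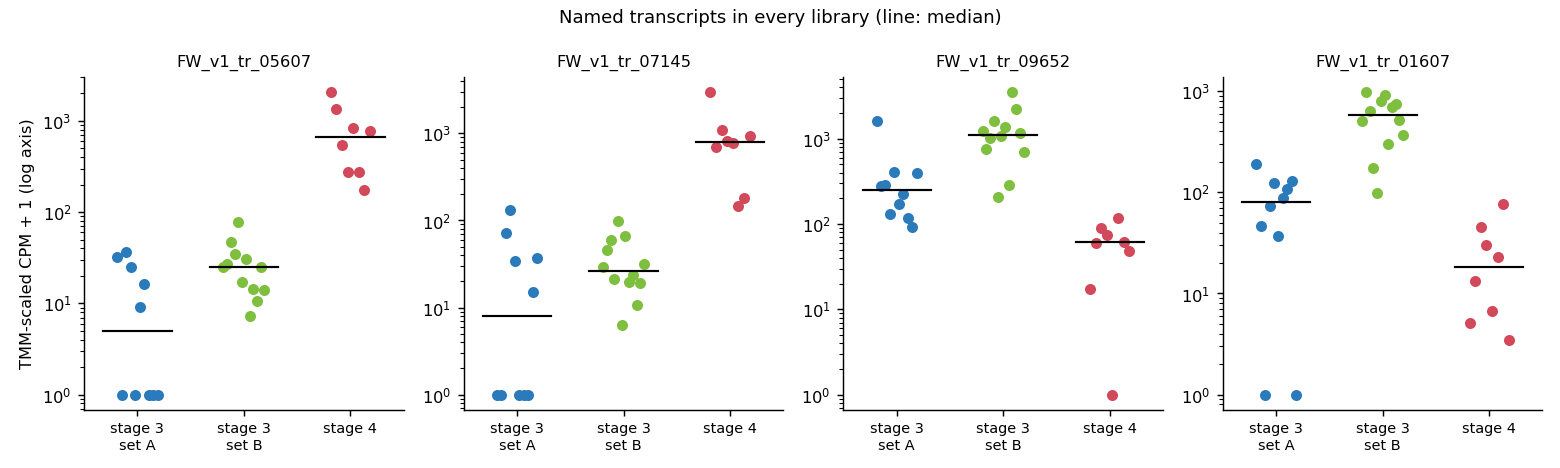
TMM-scaled CPM plus 1 on a log axis of the 4 named transcripts in every library of stage 3 set A, stage 3 set B and stage 4, with the median as a line. For FW_v1_tr_05607 and FW_v1_tr_07145 every stage 4 library lies above every stage 3 library, and for FW_v1_tr_09652 7 of 8 lie below.

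Complete separation was rare. Of 4673 transcripts, 20 (0.428%) had every stage 4 library above every stage 3 library, and all 20 were among the rises. None had every stage 4 library below every stage 3 library, which any stage 3 library without a count precludes. Of the 927 falls, 674 had no count in at least 1 stage 3 library, and 4 stage 3 libraries held only 14491 to 25662 transcript counts. The 20 rose by a median of 3.05 on the log2 scale, from a median level of 38.5 CPM to 496. Together they took 0.0903% to 0.525% of transcript counts in stage 3 libraries and 0.890% to 1.90% in stage 4. The 20 were chosen on these libraries, so these levels and shares only describe them. Of the 18 that could be tested between stages 2 and 5, all 18 were higher in stage 5 by edgeR, as were 94.7% of all rises tested there.

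Few transcripts were present in all libraries of one stage and nearly absent from the other. Counts were thinned to 80191 per library, the lowest stage 4 total, which kept 8 libraries of stage 4 and 18 of stage 3. Only 1 transcript had a count in every stage 4 library and in at most 10% of those of stage 3, and it was too low to be tested. None had a count in at least 90% of stage 3 libraries and in at most 10% of those of stage 4. At that depth 7996 ± 1027 transcripts (SD, n = 8) had a count in stage 4 libraries, against 6521 ± 629 in set A (SD, n = 6) and 6240 ± 592 in set B (SD, n = 12). Also, 790 transcripts had a count in all 26 libraries, and these included 84 of the rises and 196 of the falls. Before thinning, 1 fall had no count in any stage 4 library and no rise lacked counts throughout stage 3.

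The falls included abundant RNAs. The 927 transcripts that fell took 14.2% to 60.1% of counts in stage 3, with a median of 52.2%, and 6.75% to 14.9% in stage 4, with a median of 9.35%. The 719 that rose took 2.60% to 14.3% in stage 3, with a median of 3.82%, and 16.9% to 25.9% in stage 4, with a median of 23.9%. Since they were chosen on these libraries, these shares only describe them. The 10 most abundant falls alone went from 14.3% ± 7.33 (SD, n = 22) to 2.39% ± 1.18 (SD, n = 8), while the 10 most abundant rises went from 1.21% ± 0.765 to 4.13% ± 0.782.

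The same transcripts were then followed through libraries that had no part in choosing them. The falls took a median of 61.0% of transcript counts in 4 yolk libraries, 61.4% at stage 1 and 46.6% at stage 2. Later they took 8.36% at stage 5, then 7.75% at stage 6, with 4.60% at stage 7 and 4.64% at stage 8. The rises took a median of 2.93% in yolk, 4.12% at stage 1 and 4.11% at stage 2. Their share was 24.1% at stage 5 and 22.4% at stage 6, followed by 19.9% at stage 7 and 18.1% at stage 8. Stages 1 and 2 thus lay near stage 3, and stages 5 and 6 near stage 4, for both groups. Yolk and stages 1 and 2 hold only spike-in sets A and B, as stage 3 does, and stages 5 and 6 only the set of stage 4. Set and stage cannot be told apart here either.

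**Figure D4:**
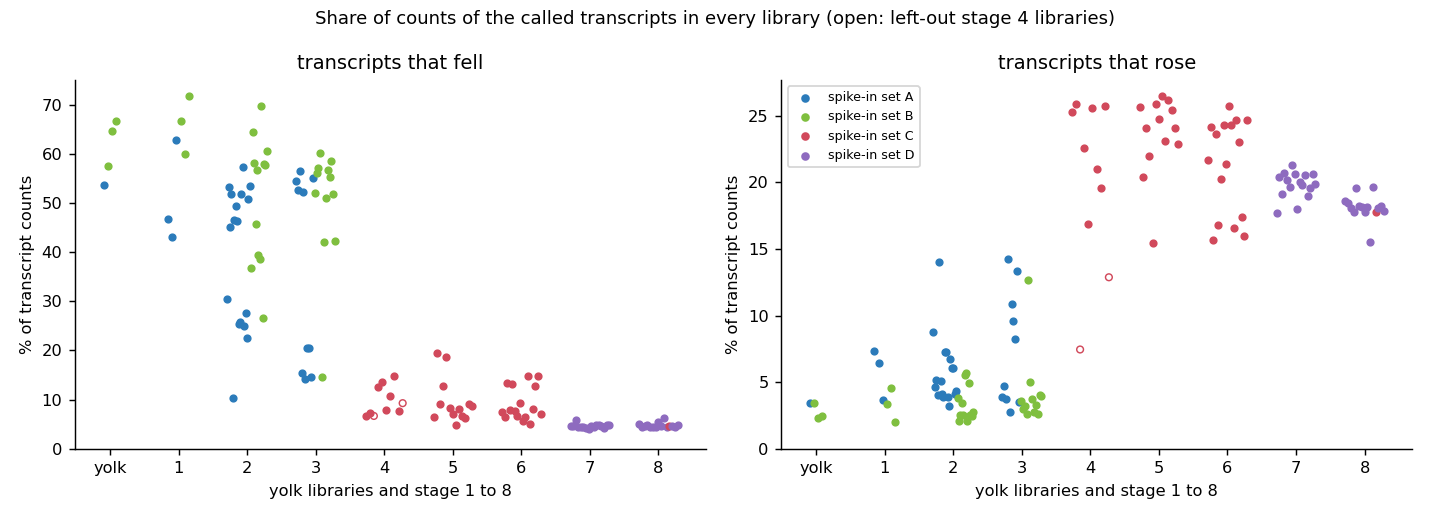
Percent of transcript counts taken by the 927 transcripts that fell and the 719 that rose from stage 3 to stage 4, 1 point per library, for yolk and stages 1 to 8, coloured by spike-in set, with left-out stage 4 libraries open. The falls take 6.75% to 14.9% in stage 4 and 53.6% to 66.7% in yolk.

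A comparison of stage 5 with stage 2 shares no library with that of stage 4 with stage 3, though it runs across the same spike-in sets. By edgeR, 1422 of 3591 transcripts (39.6%) were higher in stage 5 and 838 (23.3%) lower. Of the 588 rises that could be tested there, 557 (94.7%) were called higher in stage 5 and none lower, beside 39.2% higher among all 3467 transcripts tested in both. Of 682 falls, 604 (88.6%) were called lower and none higher, beside 23.6% lower among all. The median log2 difference between stages 5 and 2 was 2.29 for the rises, -2.03 for the falls and 0.66 for the transcripts that had not been called. Against set B of stage 2 alone, 6 of the 2260 transcripts were called in the opposite direction.

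Yolk libraries and stage 2 embryos share spike-in sets A and B, so that yolk and embryo can be compared with the set as a term. This test had 4 yolk libraries and called 3 transcripts higher in yolk (0.0809%) and 8 lower (0.216%) of 3709, which is 0.297% in all, by edgeR, and DESeq2 called 63 and 257. Its fitted differences are therefore used as a description. Of 862 falls measured there, 656 (76.1%) were higher in yolk than in stage 2, at a median log2 difference of 0.43. Over all 3296 transcripts measured in both, 45.4% were higher and the median was -0.15. Of 320 rises, 71 (22.2%) were higher in yolk and the median was -0.92. Rises and falls that were too low in yolk and stage 2 to pass the filter were not measured there. The mean level over all groups was highest in yolk for 616 of 927 falls (66.5%), for none of the 719 rises and for 25.0% of all transcripts tested.

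Of the 862 falls, 206 (23.9%) were lower in yolk than in stage 2. By size, 57 of the 862 were at least 2-fold lower in yolk than in stage 2, against 1073 of all 3296 transcripts. At least 2-fold higher in yolk were 140 of the 862, against 330 of the 3296. Both groups were chosen by their yolk and stage 2 values, so their levels there only describe them. The median level of the 57 was 46.8 CPM in yolk and 407 at stage 2, then 179 at stage 3, and 32.2 and 32.3 at stages 4 and 5. The 140 stood at 243 CPM in yolk and 85.7 at stage 2, then 121 at stage 3 and 22.2 at stage 4.

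Of the 8 transcripts that edgeR called lower in yolk than in stage 2, 6 were among the falls. Most of their counts came from 1 of the 6, at a mean of 10733 CPM in stage 3. The 6 together took 0.0161% to 27.2% of transcript counts in stage 1 and 0.124% to 15.1% in stage 2. In stage 3 they took 0.0188% to 8.97%, in stage 4 0.0216% to 0.198% and in yolk 0.00744% to 0.150%. They exceeded 1% in 3 of 6 stage 1 libraries, 17 of 29 stage 2 libraries and 7 of 22 stage 3 libraries, but in none of the 8 of stage 4. Set A held all 3 of those stage 1 libraries, 16 of the 17 of stage 2 and all 7 of stage 3, and in set B of stage 3 the highest value was 0.441%. Without the most abundant transcript, the other 5 took at most 0.211% at stage 1, 2.09% at stage 2, 0.412% at stage 3 and 0.0923% at stage 4. Without 1 yolk library (replicate 2, 3 or 4) none of the 8 was called lower in yolk.

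The called transcripts were then followed to stage 7. Between stage 7 and stages 5 and 6 together, edgeR called 2396 of 8722 transcripts (27.5%) higher in stage 7 and 2568 (29.4%) lower. Among the 2886 that had not been called between stages 3 and 4, 15.0% were higher and 45.8% lower. Of the 719 rises, 97 (13.5%) were higher and 392 (54.5%) lower in stage 7, and of 621 falls 76 (12.2%) were higher and 298 (48.0%) lower. The differences between these shares were not tested. A change of spike-in set falls on this step too.

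Stage 3 embryos were not alike, and a wide spread was not particular to that stage. The falls took 14.2% to 60.1% of transcript counts in stage 3 libraries and 10.3% to 69.7% in those of stage 2. Each library was placed by the transcripts that differ between stages 2 and 5, which were chosen without stages 3 and 4. Those lower in stage 5 took 19.3% to 29.6% of transcript counts in 6 stage 3 libraries and 47.5% to 60.5% in the other 16, with none between. Stage 4 libraries ran from 8.41% to 21.9%, so that 1 stage 3 library lay in their range. Those higher in stage 5 took 21.3% to 32.5% in the 6 libraries, 6.86% to 12.5% in the 16 and 26.5% to 43.9% in stage 4. The 6 comprised replicates 4, 6, 7, 8 and 9, which belong to set A, and replicate 15, which belongs to set B.

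In set A the 5 libraries with low shares were also those with the most RNA per spike-in. Their log2 ratio of transcript to spike-in counts ran from -1.55 to 0.54, and that of the other 5 from -4.19 to -1.68. Their transcript counts ran from 124391 to 320672, and those of the other 5 from 14491 to 80880. In set B replicate 15 had a log2 ratio of 5.01, while replicate 22, at 5.13, had a share of 49.7%. The part of depth and RNA content in this division was not tested.

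**Figure D5:**
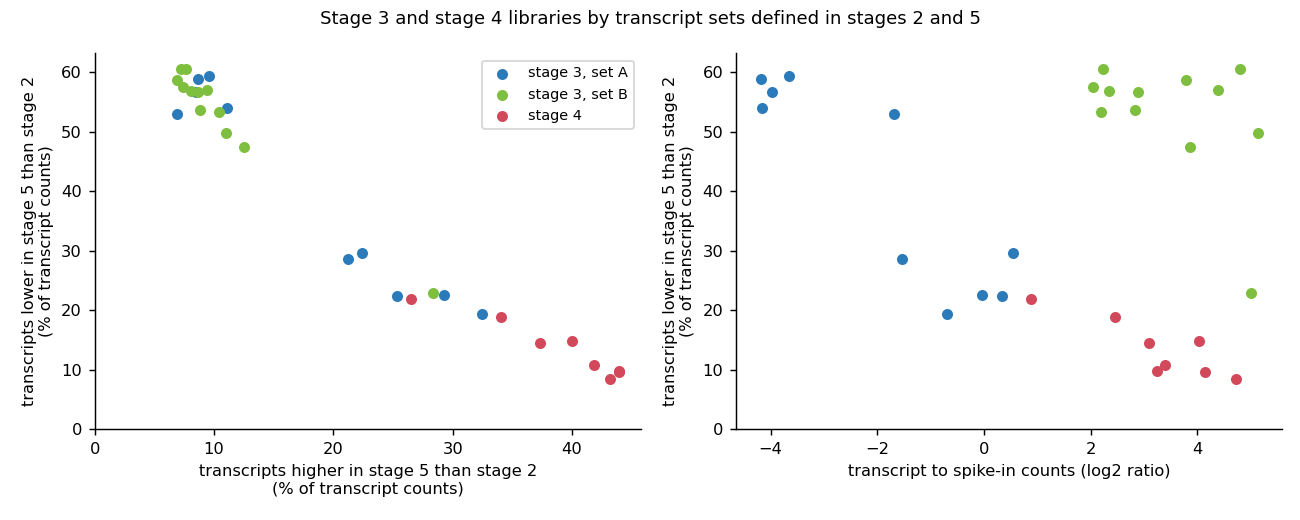
Percent of transcript counts taken by transcripts lower in stage 5 than stage 2, plotted against the percent taken by those higher in stage 5 (left) and against the log2 ratio of transcript to spike-in counts (right), 1 point per library of stage 3 set A, stage 3 set B and stage 4. Stage 3 falls into 16 libraries above 47% and 6 below 30%, the latter beside stage 4.

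The spread between embryos was estimated for each group. The common biological coefficient of variation estimated by edgeR over the 4673 transcripts was 0.628 within stage 4 (n = 8), 1.15 within set A (n = 10) and 0.943 within set B (n = 12) of stage 3. It was 0.609 within stage 5 (n = 13), and 1.14 and 1.04 within sets A and B of stage 2 (n = 17 and 12). For the spike-ins the values were 0.467 in stage 4, 0.256 in set A and 0.672 in set B of stage 3, so the order among groups was not that of the transcripts. No test was made of these coefficients. Stage 4 had lost 2 libraries by a measured value and stage 3 none. With all 10 stage 4 libraries the coefficient was 0.705, and the SD of the share of the 100 most abundant transcripts was 10.9, against 6.75 in stage 3. The stage 4 library nearest to stage 3 was replicate 5, with shares of 21.9% and 26.5% in the transcripts lower and higher in stage 5. It also had the lowest transcript count of stage 4 (80191), the lowest log2 ratio to spike-ins (0.88) and the highest share of protist-high transcripts (2.95%), and without it 902 transcripts rose and 968 fell by edgeR.

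With all 10 stage 4 libraries, 665 transcripts rose and 963 fell of 4081 tested by edgeR, and 1347 of the 1646 calls were shared. The mean share of the 100 most abundant transcripts in stage 4 was then 30.8% ± 10.9 (SD, n = 10) and still below stage 3 (permutation test, p = 0.00019). Without the 3 kept libraries in which protist-high transcripts exceeded 2% of counts (stage 4 replicate 5 and stage 3 replicates 5 and 10), 883 rose and 889 fell. Without the 4 stage 3 libraries in which the 3 left-out transcripts exceeded 20% of counts, 527 rose and 1131 fell. Replicate numbers follow the order of deposition. No source says whether embryos shared a capsule, so p-values measure the spread between these libraries.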

How the data were processed

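The authors deposited raw counts, whole numbers without normalization, of reads on transcript models and spike-ins, together with HTSeq's counters, for 132 libraries. The tools listed in the submitters' processing notes are CASAVA 1.8, Bowtie2 2.1.0 and HTSeq 0.5.4p3. Those notes list a fly build, which is not that of these planarian models, so no coordinates are given. Strand setting and use of molecular identifiers are not given in the sources used here, so counts may include PCR copies. Reads not aligned made up 47.8% to 90.9% of reads in stage 3 and 59.8% to 77.9% in stage 4, and stayed out of all totals.

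Libraries of stage 4 and stage 3 were compared with edgeR 4.0.16 (R 4.3.3): filterByExpr by group, TMM factors, robust dispersion, the quasi-likelihood F test and Benjamini-Hochberg adjustment over all features tested. Standard errors were derived from log2 change and F. CPM values were computed from the deposited counts. The fit was tested on simulated data, where it missed nearly all 2-fold changes and most 4-fold changes. Far fewer transcripts were changed there than were called here, so those rates do not carry over to this comparison. Transcripts not called may still have changed. Spike-in sets came from Ward clustering, into 4 sets, of log2 proportions of the 26 spike-ins that reached 5 counts in 95% of all libraries. Transcripts high in the protist library had at least 10 counts there and at least 10 times the highest mean CPM of stages 1 to 3, 5 to 8 and yolk. Single values per library were tested by exact permutation of libraries. With 10 or more in both groups, 100000 permutations were drawn. Named transcripts were called against all of stage 3 and against each set, reached 100 CPM on average in the higher group with a count in 75% of its libraries, were not high in the protist library, and had the largest changes. Alternatives included DESeq2 1.42.0, other scalings and filters, thinning to 14491 counts and leaving out libraries. The comparison and its lists were chosen with earlier results of these data known.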

Additional observations from a re-analysis of the deposited data

Results flagged for a closer look

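FW_v1_tr_07145 was at 2972 CPM in stage 4 replicate 1, far above the next stage 4 library at 1082 CPM. The gap was 0.669 of the whole range of the 8 libraries, against a critical value of 0.526 in Dixon's test. This was the only such value among 10 quantities examined over the 8 stage 4 libraries. For each quantity examined, chance alone gives such a value about 1 time in 20 where values are normally distributed. The test was made on CPM, and on a log scale the gap takes a smaller part of the range. Without that library the transcript was still higher in stage 4 than in stage 3, as it was without each other library, with log2 changes of 4.22 to 5.00 (edgeR, largest adjusted p = 3.82e-06).

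Transcripts high in the protist library took 54.5% of transcript counts in the left-out stage 4 replicate 3 and 31.1% in replicate 10, against at most 2.95% in the 8 kept libraries of stage 4.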

How the results depend on the processing

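Stage 4 against stage 3 gave 1646 calls by edgeR and 1334 to 2036 without each of the 30 libraries in turn. It gave 398 with spike-in scaling, 2555 with DESeq2 (1849 rises, 706 falls), 3885 with no filter (2645 rises, 1240 falls), 413 against set A, 2873 against set B and 178 of 318 tested after thinning. No transcript changed its direction among calls in any of these. The named falls missed the threshold under spike-in scaling, with log2 changes of -3.23 (edgeR adjusted p = 0.0892) and -3.63 (edgeR adjusted p = 0.0689), and the named rises passed wherever they were tested, which thinning did not allow. Spike-in calls went from 4 to 7 with no filter, 12 with all 10 stage 4 libraries, 31 against set A and 18 against set B. Sets A and B of stage 3 differed in 192 transcripts, 104 with RLE, 349 with DESeq2 and 952 with no filter. With no filter, stage 5 against stage 2 gave 7725 calls in place of 2260, and stage 7 against stages 5 and 6 gave 7645 in place of 4964. Yolk against stage 2 gave 11, or 320 with DESeq2, 80 with no filter, 3 without the set term and 0 to 7 without each yolk library. The 0 arose without replicate 3, where 603 transcripts had an unadjusted p under 0.05 by edgeR and DESeq2 was not run. The log2 transcript to spike-in ratio differed by 2.23 over all of stage 3, by 5.15 against set A and by -0.21 against set B. The causes were not tested. No paired analysis was possible because the labels give embryos no shared replicate numbers. Low totals limit transcripts under about 16.2 mean counts, for which no spike-in was tested.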

Other observations

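The 23 falls of at least 16-fold were called in 18 of 19 cases tested against set B, and the only 1 that could be tested against set A was called. Among all falls, 96.2% and 61.5% of those tested were called. Together the 23 took 0.119% to 27.1% of transcript counts at stage 1 and 0.0838% to 13.7% at stage 2. The range was 0.0623% to 9.88% at stage 3 and 0.0236% to 0.112% at stage 4. Most of this came from 1 transcript, without which the highest values were 0.293% at stage 1, 0.526% at stage 2, 1.08% at stage 3 and 0.0262% at stage 4.

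Of 320 rises measured in yolk and stage 2, 153 were at least 2-fold lower in yolk. Over all transcripts, 1073 of 3296 were at least 2-fold lower in yolk. Against set B all 153 of these rises were called, beside 98.1% of all rises tested. Against set A 23 of 152 tested were called (15.1%), beside 22.0% of all rises tested. The 153 rises took a median of 0.481% of transcript counts in yolk and 1.46% at stage 3. They then took 8.46% at stage 4, with 8.21% at stage 5 and 4.55% at stage 8.

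Some transcript models carried counts equal to those of another model within counting noise over the 30 libraries, a chi-square p above 0.01. This held for 103 of 561 rises and 211 of 535 falls that averaged at least 20 counts, and for none of the 4 named transcripts. The counts of rises and falls are counts of models, and whether such models share reads was not tested.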
